A study of Mus musculus with 6 samples.

Results

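The transcription factors that set enteroendocrine cell fate were examined in GLUTag cells, a mouse cell line of intestinal L-cell type that transcribes Gcg, the gene of proglucagon and so of GLP-1. The group holds 9 named genes, Neurod1, Neurog3, Pax6, Isl1, Nkx2-2, Insm1, Rfx6, Foxa1 and Foxa2, out of 54281 genes in the deposited table, and they were chosen by symbol from their known roles in enteroendocrine and pancreatic alpha cells. All 9 were found. The libraries came from 6 wells of untreated GLUTag cells, 3 wells of plate 1 at passage 23 and 3 wells of plate 2 at passage 27, each grown for 48 h in DMEM with 1 g/L glucose and 10% FBS. Passage and plate changed together and cannot be told apart. The p-values measure only the spread between these wells of a single line. A kit that reads the 3′ end of each polyadenylated transcript was used, and each transcript is read once whatever its length. Levels are given as CPM, the counts of a gene scaled to a common library total, and can therefore be set side by side between genes. Total counts ranged from 21399987 to 36488198, so that 3 counts, the limit that a count of 0 allows, equalled 0.0822 to 0.14 CPM (counting error only). The plate 2 columns could not be matched to replicate numbers and are told apart below by their total count (lowest, middle, highest).

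The labelled cell type was checked against marker genes. All 10 enteroendocrine markers were above 3 counts in every library, with a summed level of 4896 to 6662 CPM, led by Gcg, Cck and Chgb. That list was chosen with earlier results of these data known, so 10 of 10 is a description and no test of the label. It leaves out the hormone genes Gip, with 0 counts in every library, and Sst, with at most 1 count. The absorptive and goblet list summed to 39.0 to 47.0 CPM, of which Tff3 gave 37.8 CPM on average, and 4 of its 9 genes exceeded 3 counts in every library. The islet list summed to 80.02 to 114 CPM, and 3 of its 7 genes were above 3 counts throughout, led by Ttr and Irx2, while both insulin genes had 0 counts throughout. Blood markers summed to at most 0.783 CPM and fibroblast markers to at most 7.06 CPM. The plate 2 library with the middle total stood apart from the others. In it, of 5031 genes averaging 30 CPM or above, 354 were reduced more than 2-fold against the mean of the other plate 2 libraries, whereas the same count was 0 to 3 for any of the remaining 5 libraries. The plate 2 library of highest total had 49 genes more than 2-fold higher than the mean of the others of its plate, where any other library had 0 to 4. That mean includes the middle library, and its part in the 49 was not tested. The main results that rest on the middle library are given with and without it. In bulk libraries such as these, fewer cells with a transcript and less of it per cell cannot be told apart.

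Enteroendocrine cells arise from crypt progenitors through a cascade of transcription factors. Neurog3, a basic helix-loop-helix (bHLH) protein, is switched on transiently in the progenitor and commits it to the endocrine lineage. Neurod1, the zinc finger protein Insm1 and the homeodomain proteins Pax6, Isl1 and Nkx2-2 act after it and persist in hormone-producing cells, where they bind hormone genes. Rfx6, a winged helix protein, and the forkhead proteins Foxa1 and Foxa2, which open chromatin in endoderm, take part both early and late, and Pax6, Isl1 and the Foxa proteins are known activators of Gcg.

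Neurog3, the factor at the head of the cascade, was not detectable at this depth. Neurog3 (ENSMUSG00000044312, GRCm38 chr10:62133090-62134763, plus strand) had 0 counts in all 6 libraries. Against the limit of 3 counts per library, Neurod1 was at least 4220-fold higher, Isl1 at least 3406-fold and Foxa2, the lowest of the detected factors, at least 98.3-fold. Fam241b, which is annotated on the opposite strand across the Neurog3 gene, had 2.92 to 5.80 CPM. The strand setting of the read assignment is not given in the sources used here, and the part of this overlap in the count of Neurog3 was not tested. The promoter of this gene is shown because no transcript of it was counted. The 250 bases before its start (RefSeq, GRCm38.p6, chr10:62132840-62133089, plus strand) hold a single E-box, the motif CANNTG that bHLH factors recognise, printed in capitals:
Neurog3: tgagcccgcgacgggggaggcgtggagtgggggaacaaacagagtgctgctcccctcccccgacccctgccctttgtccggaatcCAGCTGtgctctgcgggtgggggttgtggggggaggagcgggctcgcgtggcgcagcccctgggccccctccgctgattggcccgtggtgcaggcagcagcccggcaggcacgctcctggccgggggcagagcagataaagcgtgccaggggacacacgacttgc
E-boxes are common, and 66.2% of 32851 such windows of mouse genes hold at least 1 on either strand, so the match is a description only.

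**Figure D1:**
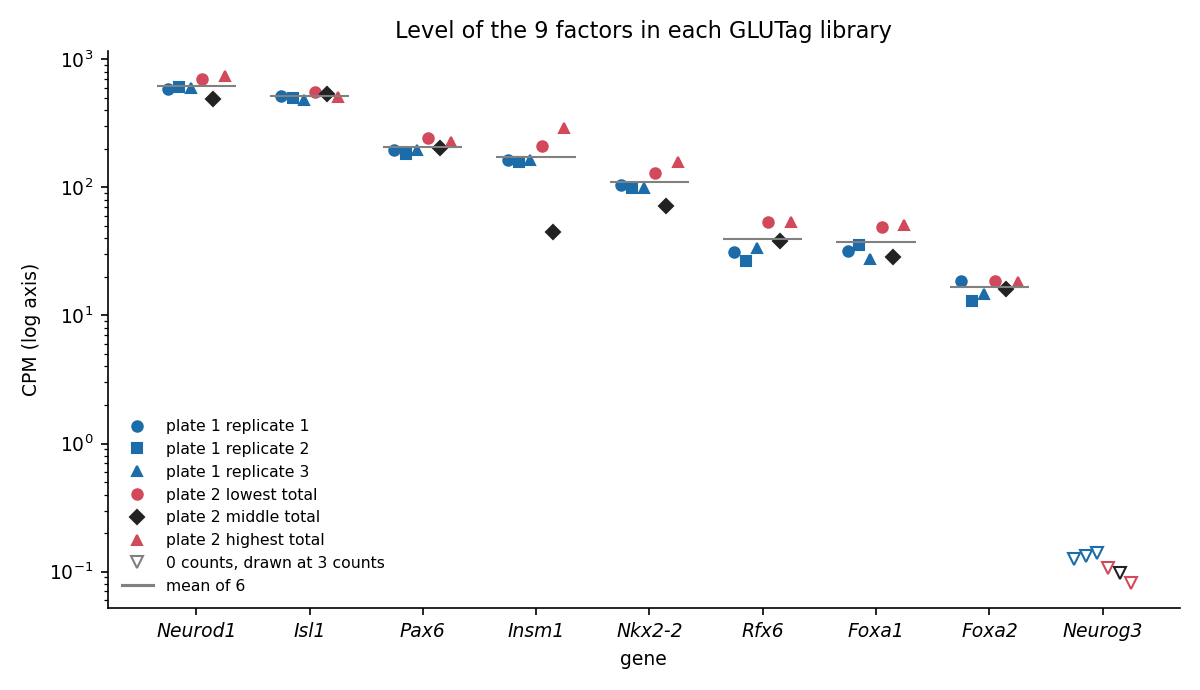
Level of each factor in each of the 6 GLUTag libraries in CPM, on a log axis. Points are libraries, grey lines are means of 6, and open triangles mark 0 counts, drawn at the level of 3 counts. Neurod1 and Isl1 lie highest, Neurog3 has 0 counts in every library, and the plate 2 library with the middle total (black diamonds) lies far below the others for Insm1.

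The remaining 8 factors were detected in every library, and their levels spanned from 16.6 to 617 CPM on average. Neurod1 and Isl1 together made up 66.1% of the summed level of the group, which ran from 1425 to 2041 CPM between libraries.

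Neurod1, the bHLH factor that follows Neurog3 and activates the secretin gene, was the highest. Neurod1 (ENSMUSG00000034701, chr2:79452521-79456751, minus strand) measured 584, 607 and 592 CPM in replicates 1, 2 and 3 of plate 1, and 696, 487 and 739 CPM in the plate 2 libraries of lowest, middle and highest total. The mean was 617 ± 89.3 CPM (SD, n = 6), rank 224 among all genes. The plate 1 libraries lay close together and within the range of plate 2, whose middle library was the lowest of the 6. Cerkl, a gene on the same strand that overlaps Neurod1, had 3.64 CPM on average, or 0.589% of the Neurod1 level.

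Isl1, a LIM homeodomain protein that binds the proglucagon promoter, had the lowest spread of the group on plain CPM. Isl1 (ENSMUSG00000042258, chr13:116298281-116309689, minus strand) measured 520.4, 500.3 and 477 CPM on plate 1 and 559, 536 and 507 CPM on plate 2, in the same order of libraries. Its mean was 517 ± 28.5 CPM (SD, n = 6), rank 276. The coefficient of variation (CV, the SD as a share of the mean) was 5.52%, and 1.77% of 7589 genes that reached 10 CPM throughout varied less. The library that stood apart gave a level within the range of the others, and without it the CV was 5.87% and the share of genes that varied less 7.41%. On TMM-scaled CPM, a scale explained with the test between plates, Pax6 varied less, with a CV of 4.93% against 8.05% for Isl1.

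Pax6, a paired-domain factor required for Gcg transcription, followed. Pax6 (ENSMUSG00000027168, chr2:105668900-105697364, plus strand) measured 196, 182 and 195 CPM on plate 1 and 243, 204 and 225 CPM on plate 2, with a mean of 208 ± 22.4 CPM (SD, n = 6) and rank 755. Each plate 2 library lay above each plate 1 library on this scale. Pax6os1, an antisense gene that overlaps it, had 0.597 CPM on average.

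Insm1, a zinc finger repressor that recruits the histone demethylase Kdm1a, varied most over the 6 libraries. Insm1 (ENSMUSG00000068154, chr2:146221921-146225020, plus strand) measured 165, 159 and 163 CPM on plate 1, and 208, 45.1 and 291 CPM on plate 2. The plate 1 libraries were nearly equal, whereas the plate 2 libraries included both the lowest and the highest of the 6, 6.45-fold apart. The mean was 172 ± 79.8 CPM (SD, n = 6), rank 936, and 197 ± 56.1 CPM (SD, n = 5) without the middle library. The CV of 46.5% fell to 28.5% without it, and the share of the 7589 genes that varied less went from 99.4% to 92.7%. Rfx6 then varied more than Insm1, with a CV of 32.5%.

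Nkx2-2, a homeodomain factor of enteroendocrine subtype choice, had the same pattern of high and low libraries as Insm1. Nkx2-2 (ENSMUSG00000027434, chr2:147177546-147194243, minus strand) measured 103, 99.2 and 99.3 CPM on plate 1 and 130.0, 71.3 and 156 CPM on plate 2, with a mean of 110 ± 29.4 CPM (SD, n = 6) and rank 1576. The middle library of plate 2 was again the lowest and the library of highest total again the highest. Of the antisense genes that overlap Nkx2-2, 6430503K07Rik had 4.03 CPM on average and Nkx2-2os had 0 counts.

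Rfx6, which acts both in progenitors and in mature hormone cells, was lower by a further step. Rfx6 (ENSMUSG00000019900, chr10:51677756-51730432, plus strand) measured 31.5, 26.5 and 33.8 CPM on plate 1 and 53.6, 38.2 and 54.0 CPM on plate 2, with a mean of 39.6 ± 11.6 CPM (SD, n = 6) and rank 4103. On this scale the plates did not overlap, and the middle library of plate 2 was the nearest to plate 1, whereas they overlapped on the TMM scale used for the test between plates.

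The forkhead pioneers were the lowest of the detected factors. Foxa1 (ENSMUSG00000035451, chr12:57540628-57546916, minus strand) measured 32.0, 35.2 and 27.5 CPM on plate 1 and 49.4, 28.6 and 50.8 CPM on plate 2, with a mean of 37.2 ± 10.3 CPM (SD, n = 6) and rank 4300. Foxa2 (ENSMUSG00000037025, chr2:148042877-148046969, minus strand) measured 18.6, 13.0 and 14.6 CPM on plate 1 and 18.7, 16.2 and 18.3 CPM on plate 2, with a mean of 16.6 ± 2.39 CPM (SD, n = 6) and rank 7038. For both genes the plates overlapped. Foxa1 is shown with the stretch of its promoter that holds a forkhead motif, TGTTTAC on either strand, since it was the only one of the 8 factors with a RefSeq promoter entry to have that match, against 3.17% of all windows. The RefSeq start used for Foxa1 lies inside the gene span given above, and so does the stretch. The stretch (GRCm38.p6, chr12:57546216-57546282, minus strand) has the match, read as the reverse complement, in capitals:
Foxa1: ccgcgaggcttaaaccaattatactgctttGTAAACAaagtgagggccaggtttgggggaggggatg

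The order of the levels was then tested within libraries, as the difference of log2(CPM + 1) for each of the 36 pairs, by flipping the signs of the 6 differences (exact permutation test, two-sided, smallest p 0.03125). Among the 28 pairs of detected factors the same gene was higher in 6 of 6 libraries in 24, with an exact p of 0.03125 and a Benjamini-Hochberg adjusted p of 0.0352 over the 36. The 8 pairs with Neurog3, which has 0 counts throughout, were fixed by those counts and bring the number ordered alike to 32. The 4 pairs that did not pass were all neighbours in the order. Neurod1 exceeded Isl1 by 0.25 ± 0.22 on the log2 scale (SD, n = 6; higher in 5 of 6 libraries, exact p = 0.0625, adjusted p = 0.0662), and the direction turned in the middle library of plate 2. Insm1 exceeded Nkx2-2 by 0.49 ± 0.57 (SD, n = 6; 5 of 6 libraries, exact p = 0.0625, adjusted p = 0.0662), and the same library was the exception, at -0.65. Pax6 exceeded Insm1 by 0.45 ± 0.87 (SD, n = 6; 5 of 6 libraries, exact p = 0.1875, adjusted p = 0.193), with the plate 2 library of highest total as the exception. The middle library had the largest difference, 2.15, and carried most of this mean. Rfx6 and Foxa1 differed by 0.08 ± 0.28 (SD, n = 6; 4 of 6 libraries, exact p = 0.5), and here too the middle library had the largest value, 0.40. Clear steps separated Isl1 from Pax6 (1.32 ± 0.12), Nkx2-2 from Rfx6 (1.46 ± 0.34) and Foxa1 from Foxa2 (1.09 ± 0.32; SD, n = 6), each with the adjusted exact p of 0.0352. Within plate 1 alone 35 pairs were ordered alike in all 3 libraries, within plate 2 alone 33, and without the middle library 34.

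**Figure D2:**
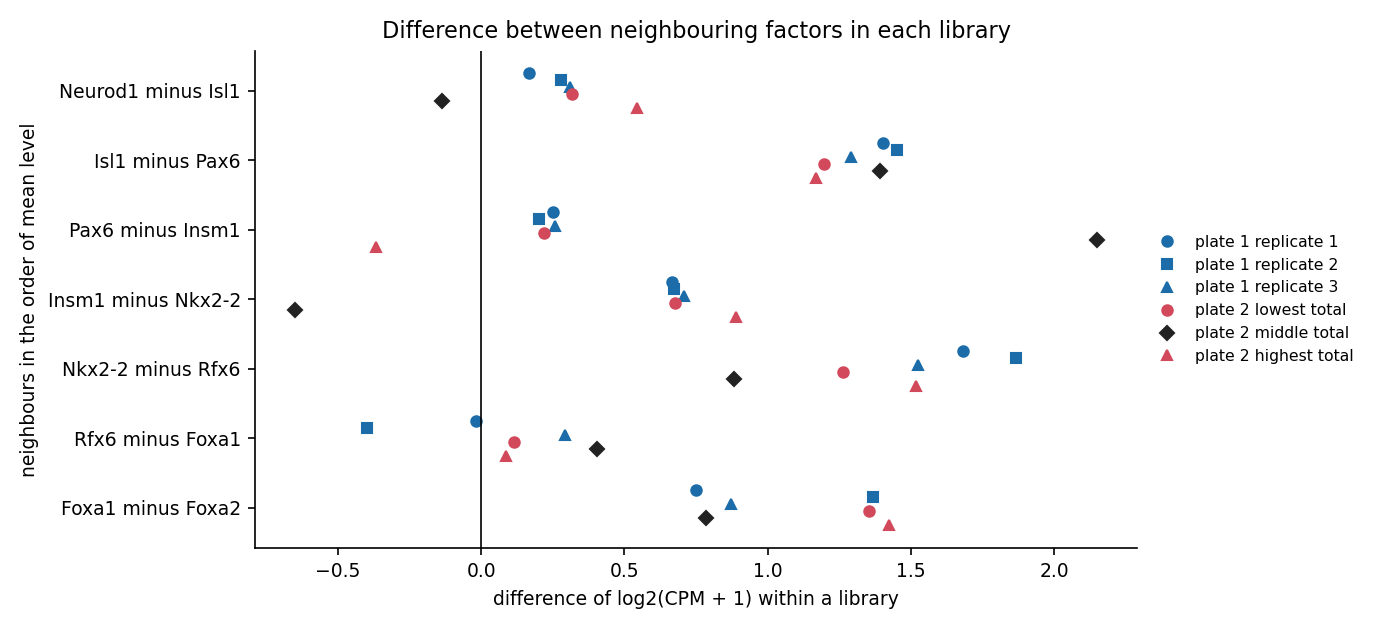
Difference of log2(CPM + 1) between neighbours in the order of mean level, in each library, without the comparison of Foxa2 with Neurog3. Points to the right of the line at 0 have the first gene higher. Isl1 minus Pax6, Nkx2-2 minus Rfx6 and Foxa1 minus Foxa2 stay to the right in all 6 libraries, and the other 4 differences have points on both sides.

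Each factor was also set against the genes of its own family, to ask whether it was the leading member in these cells. The highest other gene was picked from the same values. Of the 9 factors, 6 were above every relative in all 6 libraries (exact sign-flip permutation p = 0.03125 for each, adjusted p = 0.03125 over 9 tests). The other 3, Neurog3, Foxa1 and Foxa2, were below the highest relative in all 6, which is given as a description because the choice of that relative favours it. Isl1 exceeded its next relative, Lhx2 with 11.7 ± 2.33 CPM (SD, n = 6), by 5.37 ± 0.23 on the log2 scale, and it held 95.3% of the summed level of 12 LIM homeodomain genes. Pax6 held 96.3% of the level of 9 Pax genes and exceeded Pax5, a B-cell factor with 7.07 ± 1.93 CPM, by 4.72 ± 0.26. Insm1 held nearly all counts of its pair, since Insm2 never exceeded 2 counts.

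The other families were shared more widely. Neurod1 exceeded Neurod2, a relative known from neurons, by 1.99 ± 0.26 on the log2 scale, but Neurod2 still had 154 ± 20.0 CPM (SD, n = 6), close to the level of Insm1, and Neurod1 held 79.8% of the family. Nkx2-2 exceeded Nkx6-1, a factor of pancreatic beta cells with 27.7 ± 4.45 CPM, by 1.92 ± 0.40 and held 78.9% of 14 Nkx genes. Rfx6 exceeded Rfx3, which is best known from ciliated cells and also acts in islets, by 0.55 ± 0.31 and held 33.1% of 8 Rfx genes, 6 of which were above 1 CPM on average. Among 44 Fox genes Foxa1 took rank 3 and Foxa2 rank 8. Foxm1, a factor of cell division, was the highest with 57.8 ± 9.22 CPM, and the log2 difference from it was -0.65 ± 0.36 for Foxa1 and -1.74 ± 0.24 for Foxa2 (SD, n = 6). Neurog3 was below Neurod2 in all 6 libraries, and of the other Neurog genes Neurog1 had 0 counts and Neurog2 at most 0.959 CPM.

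**Figure D3:**
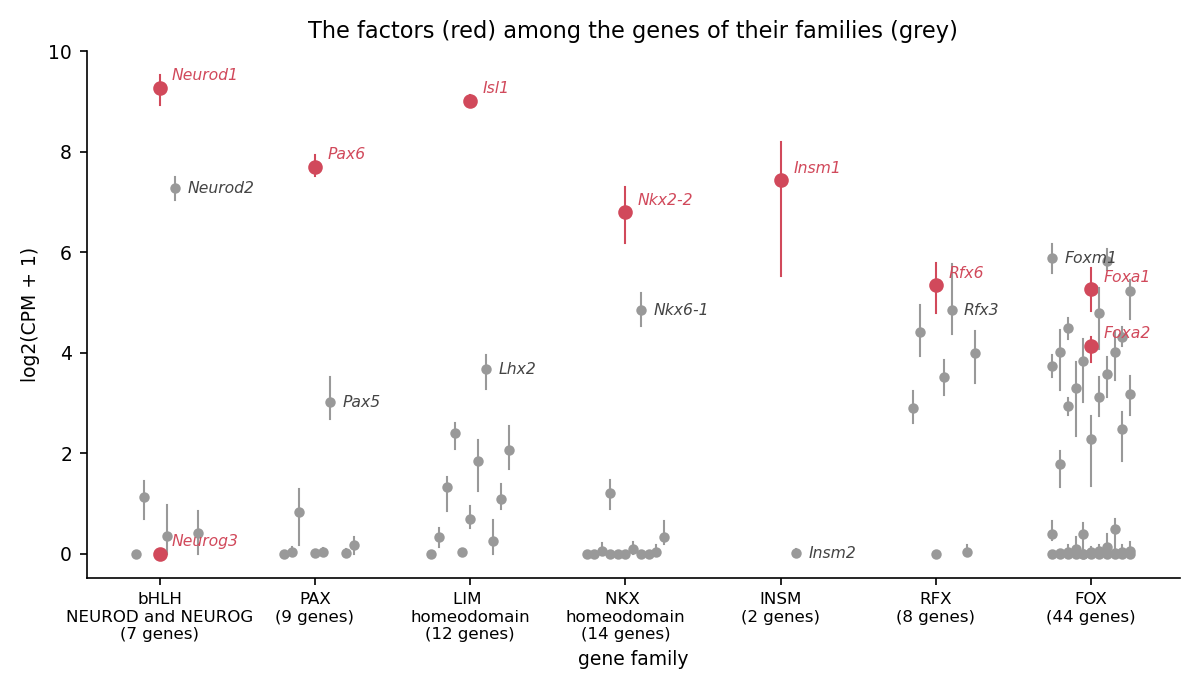
The 9 factors (red) and the other genes of their families (grey) as log2(CPM + 1), with points for the mean of 6 libraries and lines from the lowest to the highest library. Isl1, Pax6 and Insm1 stand alone at the top of their families, Neurod2 lies below Neurod1, and Foxm1 lies above Foxa1 and Foxa2.

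The rest of the network was followed in 86 listed genes, ordered by their place relative to the factors. In the proendocrine cascade, 6 of 16 genes had at least 10 CPM in every library and 5 had 0 counts in all, among them Gfi1, Sox9, Ascl2 and Neurog1. Neurod2, Id1 and Id2 were the highest, with 154, 121 and 119 CPM. The Id proteins bind the E proteins that bHLH factors pair with. The Notch effector Hes1 had 5.62 ± 0.737 CPM and Hes6 44.9 ± 8.74 CPM (SD, n = 6).

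Of the 23 endocrine subtype factors, 13 reached 10 CPM in every library. Runx1t1, Etv1 and Mafa led with 335 ± 48.1, 235 ± 22.0 and 148 ± 24.0 CPM (SD, n = 6), so Mafa, an insulin gene activator of beta cells, was transcribed where both insulin genes had 0 counts. Pdx1 measured 21.6 ± 2.44 CPM. Pax4, a factor of other endocrine subtypes, had 0.772 ± 0.438 CPM (SD, n = 6). Lmx1a, Insm2 and Nkx6-3 were the lowest, with 0 counts in every library for Nkx6-3.

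Among gut and endoderm factors, 6 of 16 reached 10 CPM throughout. Cdx2, the factor of intestinal identity, led with 56.0 ± 3.87 CPM, followed by Onecut2 with 48.4 ± 7.10 and Klf5 with 42.9 ± 6.20 CPM (SD, n = 6). Cdx1, Onecut1 and Gata6 had 0 counts in all libraries, although Gata4 had 20.3 ± 2.71 CPM. Foxa3, the third of the Foxa genes, had 0.412 ± 0.227 CPM, far below Foxa1 and Foxa2.

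Partners and corepressors were more evenly present, with 11 of 15 genes at 10 CPM in every library. Hdac1, Ssbp3 and Hdac2 were the highest, with 172 ± 13.0, 158 ± 10.2 and 147 ± 27.9 CPM (SD, n = 6), and Tle4, Tle2 and Ldb2 the lowest, with 3.77, 1.63 and 0.352 CPM. Ldb1, the adaptor that Isl1 binds, measured 28.4, 28.4 and 37.3 CPM on plate 1 and 38.8, 2.88 and 37.8 CPM on plate 2, so that the middle library held a small share of the level of any other.

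For comparison, 7589 of the 27044 genes with any count had 10 CPM in every library, and the median of the mean levels was 0.994 CPM. The medians of the lists were 0.383 CPM for the cascade, 21.6 CPM for subtype factors, 2.61 CPM for gut and endoderm factors, 47.5 CPM for partners and 44.5 CPM for known targets. These medians and the shares above include genes with 0 counts in all libraries, 5 in the cascade and 3 among gut and endoderm factors. The values for all genes leave such genes out, so the sets are unlike and no list can be placed above or below a typical gene.

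Of the 16 known targets of the factors, 10 reached 10 CPM throughout and 3 had 0 counts: Gip, Ins1 and Ins2. Gcg measured 3159, 2530 and 3185 CPM on plate 1 and 4188, 2914 and 4519 CPM on plate 2. Cck, the cholecystokinin gene, had 1079.9 ± 277 CPM and Sct, the secretin gene, 412 ± 61.1 CPM (SD, n = 6). The promoters of these hormone genes are shown because bHLH factors such as Neurod1 are known to act on hormone genes through E-boxes. Each window of 250 bases before the start held 3 E-boxes (capitals), among them the form CAGATG, which occurs in 14.4% of all windows. The share of all windows with 3 or more E-boxes was not counted, so these matches are a description only. The windows are from RefSeq on GRCm38.p6, at chr2:62483654-62483903 for Gcg, chr7:141279134-141279383 for Sct and chr9:121495695-121495944 for Cck, all on the minus strand:
Gcg: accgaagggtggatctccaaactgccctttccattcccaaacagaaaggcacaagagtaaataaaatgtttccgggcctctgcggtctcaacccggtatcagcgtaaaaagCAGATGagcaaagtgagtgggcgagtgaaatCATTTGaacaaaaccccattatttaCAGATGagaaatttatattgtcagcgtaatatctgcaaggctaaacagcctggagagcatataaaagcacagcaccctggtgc
Sct: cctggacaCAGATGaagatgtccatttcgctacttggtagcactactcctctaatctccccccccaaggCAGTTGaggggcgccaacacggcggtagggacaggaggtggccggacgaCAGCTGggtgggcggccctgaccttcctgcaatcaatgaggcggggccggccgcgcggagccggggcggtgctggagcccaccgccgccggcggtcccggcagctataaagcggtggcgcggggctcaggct
Cck: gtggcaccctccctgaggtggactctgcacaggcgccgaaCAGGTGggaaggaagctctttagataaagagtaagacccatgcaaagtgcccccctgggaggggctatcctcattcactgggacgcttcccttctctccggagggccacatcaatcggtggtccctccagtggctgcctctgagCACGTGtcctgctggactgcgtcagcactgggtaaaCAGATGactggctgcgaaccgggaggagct
Gcg has 2 copies of CAGATG, 139 and 83 bases before the start, Sct has 1 at 242 bases and Cck 1 at 30 bases. The factors themselves had 11 windows for 8 genes, Insm1 having no entry, and 7 of the 11 windows had an E-box while only that of Nkx2-2 had the form CAGATG. The homeodomain core TAAT, on either strand, was found in 8 of the 11 windows and in 54.9% of all windows. No match says only that the letters are not in the window.

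**Figure D4:**
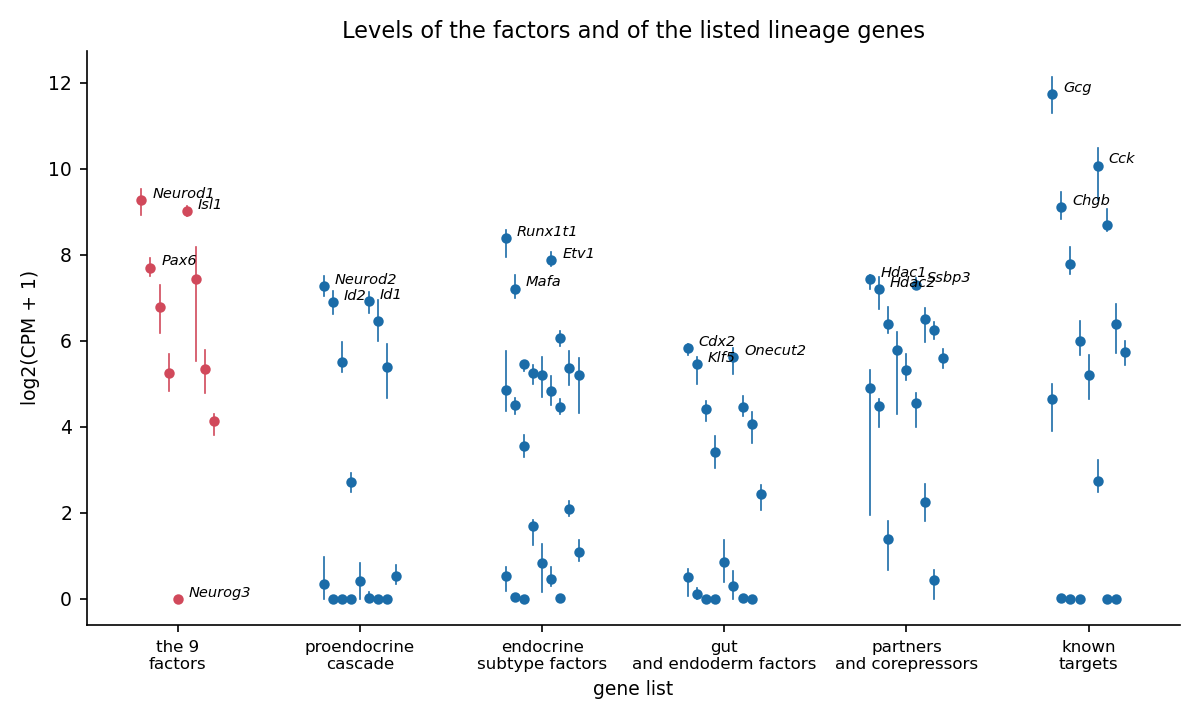
Levels of the 9 factors (red) and of the genes in 5 lists of the lineage network (blue) as log2(CPM + 1), with points for the mean of 6 libraries and lines from the lowest to the highest library. The 3 highest genes of each list are named. Gcg, Cck and Chgb, all known targets, are among the highest points, and each list also holds genes at or near 0.

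The library that stood apart on plate 2 changed the factors unequally. Set against the mean of the other plate 2 libraries, Insm1 was 5.54-fold lower in it (45.1 against 250 CPM), and 0.557% of the 5031 genes averaging 30 CPM or above had a lower ratio. Nkx2-2 was 2.01-fold lower, Foxa1 1.75-fold, Neurod1 1.47-fold and Rfx6 1.41-fold, whereas Isl1 had a log2 ratio of 0.01 (536 against 533 CPM). Thus 2 of the 7 factors at that level were more than 2-fold lower, against 7.04% of all such genes. Other genes of the network moved in both directions there. Ldb1 was 13.3-fold lower, Kdm1a 2.99-fold lower and Mnx1 2.52-fold lower, while Cck was higher by 0.87, Chga by 0.64 and Sct by 0.47 on the log2 scale. Gcg was 1.49-fold lower. GC content of the last 200 bases of the transcript was 30.5% for Insm1, 41.0% for Nkx2-2, 26.0% for Foxa1, 30% for Neurod1, 33.5% for Rfx6, 27.5% for Pax6, 38.0% for Foxa2 and 27.0% for Isl1, with a median of 39.5% over 4892 genes. The 812 genes at or below the value of Insm1 had a median log2 ratio of -0.39 in this library, against -0.03 for all genes at that level. Of the 812, 14.8% were more than 2-fold lower. The part of base composition in the levels of Insm1 and Nkx2-2 was not tested.

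Between the plates the factors were compared with edgeR's quasi-likelihood test on all genes, with TMM scaling (trimmed mean of M values). Of the 8 detected factors 0 were called at an adjusted p under 0.05, against 0.185% of all 15669 genes tested (29 genes). An unadjusted p under 0.05 was found for 1 of the 8, Rfx6, and for 2520 of the 15669 genes, so this is no result about the factors. DESeq2 and limma-voom called 0 of the 8 as well, where they called 3.53% and 0.0638% of all genes. Rfx6 had the largest log2 fold change, 0.40 (SE 0.16, edgeR adjusted p = 0.260, n = 3 wells per plate). The values were 0.17 (SE 0.22) for Foxa1, -0.03 (SE 0.25) for Nkx2-2, -0.04 (SE 0.11) for Pax6, -0.06 (SE 0.16) for Foxa2, -0.11 (SE 0.64) for Insm1, -0.16 (SE 0.15) for Neurod1 and -0.17 (SE 0.11) for Isl1.

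Without the middle library of plate 2 the comparison became sharper for all genes, with 12.0% of 15894 called (667 higher and 1244 lower). Rfx6 was then the 1 factor of 8 that passed, with a log2 fold change of 0.51 (SE 0.11, edgeR adjusted p = 0.0104). Foxa1 had 0.36 (SE 0.13, edgeR adjusted p = 0.0792), Insm1 0.32 (SE 0.12, edgeR adjusted p = 0.106), Nkx2-2 0.20 (SE 0.10, edgeR adjusted p = 0.220) and Isl1 -0.21 (SE 0.09, edgeR adjusted p = 0.135). Without the library of highest total instead, Insm1 had -0.64 (SE 0.70, edgeR adjusted p = 0.762) and Nkx2-2 -0.27 (SE 0.22, edgeR adjusted p = 0.653), so that the sign for both depends on which plate 2 library is left out. Without the middle library the share of factors called, 1 of 8, was near the share of all genes.

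The scale bears on the direction. On plain CPM, all plate 2 libraries lay above all plate 1 libraries for 2 of the 8 factors, Pax6 and Rfx6, but also for 35.2% of all genes. On TMM-scaled CPM, the scale of the test, this held for 0 of the 8 and 12.8% of all genes, and 1 factor, Isl1, had all plate 2 libraries below all plate 1 libraries, as had 12.0% of all genes. Without TMM scaling the median log2 fold change of all genes was 0.30, against 0.03 with it, and all 8 factors then had a positive value, with Rfx6 called (0.67, edgeR adjusted p = 0.0457) where 9.46% of all genes were. The median of the 8 factors was 0.22 without scaling and -0.05 with it, in both cases below the median of all genes. Without the middle library of plate 2 it was 0.09, above the 0.01 of all genes.

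**Figure D5:**
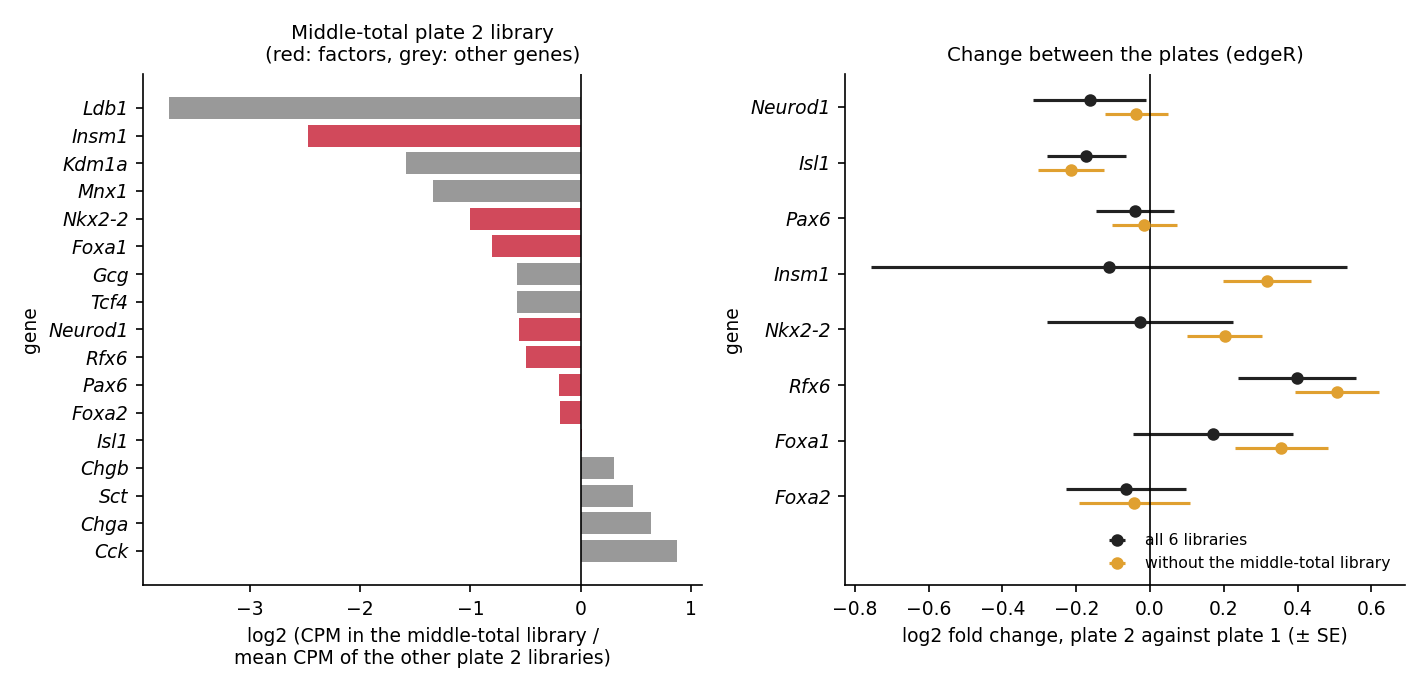
Left, log2 ratio of the CPM in the middle-total library of plate 2 to the mean of the other plate 2 libraries, for the detected factors (red) and other genes of the network (grey). Right, log2 fold change of plate 2 against plate 1 from edgeR with its SE, with all 6 libraries and without that library. Insm1 is far to the left in the first panel and has the widest error in the second, which shrinks from 0.64 to 0.12 when that library is left out.

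Among the 86 listed genes of the network, 63 could be tested between the plates and 1 was called (1.59%, against 0.185% of all genes). Sox4, an SRY-box factor of the proendocrine cascade, measured 54.1, 59.9 and 44.5 CPM on plate 1 and 30.1, 24.3 and 31.2 CPM on plate 2. All plate 1 libraries lay above all plate 2 libraries, as for 4.0% of all genes on plain CPM. On TMM-scaled CPM 12.0% of all genes had that order. The log2 fold change of Sox4 was -1.16 (SE 0.16, edgeR adjusted p = 0.0339). The call was kept with DESeq2 (adjusted p = 5.01e-07) and without the middle library of plate 2 (edgeR adjusted p = 0.000225). It was also kept without scaling, without a filter and with at least 10 counts in every library. It was lost with limma-voom (-1.15, adjusted p = 0.0639) and when any other library was left out, although the log2 fold change stayed between -1.29 and -1.04. Those fits without 1 other library called 0 to 9 of all genes. The median log2 fold changes of the lists were 0.02 for the cascade, -0.09 for subtype factors, -0.04 for gut and endoderm factors, -0.27 for partners and 0.07 for targets, beside 0.03 for all genes tested.

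Without the middle library 15 of 64 listed genes were called (23.4%, against 12.0% of all genes), 4 higher and 11 lower on plate 2. The higher genes were Id3 (0.62), Rfx3 (0.79), Irx1 (0.40) and Pcsk1 (0.45), and the lower ones included Sox4 (-1.10), Cck (-0.87), Pcsk2 (-0.58), Chga (-0.53), Neurod2 (-0.51), Kdm1a (-0.50) and Nkx6-1 (-0.50), all as log2 fold changes. Rfx3 and Rfx6 were thus both among the genes called higher, while Neurod2 was called lower and Neurod1 had -0.04 (SE 0.09, edgeR adjusted p = 0.841).

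The genes most like each factor over the 6 libraries were found by Pearson's r of TMM-scaled log2 CPM among 7588 other genes. Points share plate and library, so r is a description. Insm1 was most like Rnf146 (r = 0.9996), Caprin1 (0.999) and Hspa14 (0.999), and 302 genes had an r above 0.95 with it. Neurod1 was most like Cpne3 (0.999), Eif2b1 (0.997) and Creb1 (0.996), Nkx2-2 like Pdcl3 (0.997), Pum2 (0.996) and Paip1 (0.996), and these factors had 189 and 236 genes above 0.95. Isl1 went with Lyar (0.996), Nsa2 (0.989) and Larp7 (0.985), Pax6 with Hmmr (0.992), Rad17 (0.989) and Actr6 (0.988). Rfx6 was most like Thrap3 (0.989), Jmjd1c (0.987) and Pafah1b1 (0.986), Foxa1 like Zmym4 (0.989), Ppp3ca (0.979) and Osbpl8 (0.978), and Foxa2 like Zfp322a (0.988), Trmt2b (0.979) and Dars (0.975), with 3 genes above 0.95. Within the group, Insm1 and Nkx2-2 had an r of 0.986 over 6 libraries and 0.987 without the middle library of plate 2. Neurod1 and Insm1 had 0.967 with that library and 0.42 without it, and the sign turned for other pairs, among them Neurod1 and Pax6 (0.758 and -0.853), Insm1 and Pax6 (0.80 and -0.45) and Nkx2-2 and Pax6 (0.74 and -0.36). For the named genes outside the group, r without that library ran from 0.920 (Creb1) to 0.998 (Nsa2), and the counts of genes above 0.95 hold for all 6 libraries only.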

How the data were processed

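Poly(A) RNA of 6 GLUTag wells was sequenced by the authors with a 3′ kit. Per the labels and the methods, reads were trimmed (Trim Galore 0.6.4) and assigned with Salmon 1.5.1 to GRCm38 transcripts without length correction. The authors deposited expected counts, summed by gene and neither normalized nor pooled.

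Here counts were divided by library totals to give CPM and rounded for edgeR 4.0.16, whose robust quasi-likelihood test after TMM scaling and filterByExpr was the main test between plates (Benjamini-Hochberg over all genes). DESeq2 1.42.0, limma-voom (limma 3.58.1), other scalings, filters, pseudocounts of 0.1 and 5 CPM and the omission of each library were alternatives. Levels were compared within libraries on log2(CPM + 1), a scale that understates changes of low genes, by exact sign-flip permutation tests. The tests were checked on simulated data. Positions are from GENCODE release M21 (the authors used M23, same build), and 54107 of 54281 identifiers had a symbol. Any 2 libraries differed by more than sampling noise. The members and lists were chosen with earlier results of these data known. Named genes are the 9 factors, the highest and lowest 3 of each list, genes called, highest relatives, overlapping genes and the 3 most alike. Hes1, Hes6, Pdx1, Pax4, Gata4, Foxa3, Sct, Ldb1, Kdm1a, Mnx1 and Chga were added after their values were seen. Single values of some listed genes are not reported here.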

Additional observations from a re-analysis of the deposited data

Results flagged for a closer look

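In 10 of 56 genes checked, the factors and listed genes with a mean of 10 CPM or more, 1 library lay apart from the other 5 by a gap that Dixon's criterion passes in about 1 of 20 groups by chance. None of the 8 detected factors was among them. In 9 of the 10 it was the middle-total library of plate 2. There Ldb1 had 2.88 CPM (28.4 to 38.8 in the others), Hdac1 147 CPM (173 to 184), Tcf4 61.4 CPM (91.2 to 107), Klf5 30.8 CPM (43.8 to 48.3) and Tle3 15.0 CPM (21.5 to 24.1). It was the highest for Sct with 535 CPM (374 to 398), Chga with 290.2 CPM (186 to 222), Ttr with 87.2 CPM (50.2 to 62.5) and Hes6 with 61.7 CPM (38.0 to 46.1). Fev stood apart in plate 1 replicate 3, with 38.6 CPM against 43.1 to 44.7 in the others.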

How the results depend on the processing

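Of the 99 alternatives for the mean levels of the 9 factors, those for Neurog3 were fixed at 0 by its counts. In all the rest the mean levels moved by less than 1 SD, which for leaving out a library or taking 1 plate holds in part by construction. The 32 ordered pairs and the 6 factors above their relatives passed with pseudocounts of 0.1 and 5 CPM. Leaving out a library gave 32 to 34 pairs ordered alike, as values only, since 5 libraries cannot give an exact p below 0.0625. Counting ordered pairs and relatives within each plate alone, and the spread without the middle library or on the TMM scale, was chosen after seeing the data. Between the plates, 86 of 88 alternatives for single factors stayed on the same side of the threshold, and the other 2 were for Rfx6. The number of factors called, 0, became 1 without scaling, and 0 to 1 when a library was left out. The number of listed genes called, 1, became 3 with DESeq2, 0 with limma-voom, 5 without scaling, 5 without a filter on low counts, and 0 to 15 when a library was left out. Of all genes, 29 were called, against 553 with DESeq2, 10 with limma-voom, 545 without a filter and 1482 without scaling, where the share of lower calls went from 93.1% to 4.79%. Leaving out the middle library of plate 2 gave 1911 and any other library 0 to 9. All fits with a library left out used 5 libraries, the one with 1911 calls included. The cause of these and of the other shifts was not tested. No paired analysis was made because the labels number the wells without a number shared by both plates, and the numbers in the deposited column names, which restart on each plate, are not stated to mark a shared culture. Near 3 counts no level can be read.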
